A study of Homo sapiens with 24 samples.

Results

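The aminoacyl-tRNA synthetases were followed in HCT-116 cells, a human colorectal carcinoma line. The 35 genes were taken by name, with 20 that encode synthetases of the cytosol and 15 that encode synthetases of the mitochondria, out of 27274 gene names on the array. Each of the 35 was tested, among 15155 genes tested in all, so no member was lost to the filter on low signal. All arrays come from 1 stably transfected clone that carries a Tet repressor and a doxycycline-inducible, FLAG-tagged DN-Tcf4, a dominant negative form of the Wnt transcription factor Tcf4, so the untreated cells carry the construct too. Cells were left untreated (Ctl), treated with 5 mM sodium butyrate (NaB) or 4 µg/ml doxycycline (Doxy), or given both (DoxyNaB). By the study's methods doxycycline came first, for a time not stated there. A cotreatment of 17.5 hr, with butyrate or without it, followed before the cells were collected for RNA. Each of 6 experiments gave 1 array per treatment, 24 in all. The study describes them as biological replicates, and p-values measure the spread between these experiments of 1 clone. Butyrate is a short-chain fatty acid made from dietary fiber in the colon and an inhibitor of histone deacetylases.

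An aminoacyl-tRNA synthetase joins 1 amino acid to its tRNA, the step that puts the genetic code into effect. The cytosol and the mitochondria each need tRNAs joined to every amino acid, and most mitochondrial enzymes come from nuclear genes of their own, marked by the suffix 2. KARS and GARS serve both compartments from a single gene, and EPRS joins the enzymes for glutamate and proline in 1 protein. In the cytosol, DARS, EPRS, IARS, KARS, LARS, MARS, QARS and RARS are held together with 3 scaffold proteins in the multisynthetase complex, and the other 12 work outside it. Cells short of amino acids make more of the transcription factor ATF4, which is known to raise many cytosolic synthetase genes through a DNA element with the core TGATGNAA.

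That element and 2 forms of the Tcf/Lef core, CTTTGAT and CTTTGAA, were searched on both strands in the 300 bases around each gene start (250 before it and 50 after). The element is tied to the pathway of these genes and the Tcf/Lef core to the construct. Other forms of the Tcf/Lef core were not searched. RefSeq windows on GRCh38.p14 were found for 30 of the 35 genes (none here for AARS2, DARS, LARS, VARS and YARS). TGATGNAA was present in 7 of the 30, 6 of 16 cytosolic genes and 1 of 14 mitochondrial genes, against 3.67% of all 27305 windows. CTTTGAT was in 0 of the 30 and in 2.64% of all windows, and CTTTGAA was in GARS alone, with its first base at -148 from the start, and in 4.53% of all windows. The 7 stretches with TGATGNAA are shown because members of this set recur in the results below, each read along the strand on which the motif reads forward and with the motif in capitals. They lie at chr16:70289675-70289704 for AARS, chr11:3057407-3057436 for CARS, chr9:92293692-92293721 for IARS and chr12:57488053-57488082 for MARS. Those of NARS, TARS and YARS2 lie at chr18:57621804-57621833, chr5:33440956-33440985 and chr12:32756076-32756105. The plus strand is shown for AARS, CARS and IARS and the minus strand for the rest. A match describes these letters only and is no evidence of binding.
AARS: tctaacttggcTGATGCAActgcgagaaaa
CARS: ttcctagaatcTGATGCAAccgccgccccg
IARS: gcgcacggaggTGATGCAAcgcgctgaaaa
MARS: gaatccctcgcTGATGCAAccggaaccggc
NARS: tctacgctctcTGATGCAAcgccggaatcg
TARS: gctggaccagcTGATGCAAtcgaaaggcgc
YARS2: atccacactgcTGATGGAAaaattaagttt

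HARS2 and its cytosolic counterpart HARS start back to back on chromosome 5, with HARS on the minus and HARS2 on the plus strand. The first bases of the RefSeq transcripts used are 140691370 and 140691455 on GRCh38.p14, which leaves 84 bases between them, upstream of both (59.5% G and C). The stretch is printed because these neighbours gave 1 of the widest differences in butyrate response within an amino acid. It is chr5:140691371-140691454, plus strand.
HARS and HARS2 interval: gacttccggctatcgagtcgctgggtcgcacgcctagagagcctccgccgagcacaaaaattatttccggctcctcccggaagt

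The level of a gene is the log2 of its signal over the 75th percentile of the array, which lay between 380.2 and 1323 signal units, and it allows comparison of 1 probe between arrays but not of different genes. Between 52.7% and 88.1% of spots were well above background, with 78.4% to 88.1% in experiments 2 to 4 and 52.7% to 62.6% in the others. The NaB array of experiment 3 and the DoxyNaB array of experiment 2 had the highest signal in negative controls. From experiment 2 on, each treatment kept 1 position on the slide, so position and treatment cannot be told apart, and in experiment 1 the arrays with butyrate had a slide of their own. All 5 markers of colon epithelium were well above background on every array. In NaB/Ctl 3 of them rose: KRT8, KRT19 and CDH1, with log2 changes of 0.63, 0.97 and 0.99. EPCAM fell, with changes of -1.45 in NaB/Ctl and -1.50 in DoxyNaB/Doxy, and KRT18 did not pass in NaB/Ctl (0.12). With scaling to the median 0 of these markers rose in NaB/Ctl, and KRT8 turned below 0. Of 8 markers of fibroblasts, leukocytes and endothelium, 5 (COL1A2, DCN, PTPRC, CD3E and PECAM1) missed the filter, and COL1A1, CD68 and VWF passed it and rose in NaB/Ctl by 1.09, 0.44 and 2.77 on the log2 scale. CD68 turned to -0.49 with quantile normalization and -0.31 with scaling to the median, and VWF, well above background on 3 of 6 Ctl arrays, did not pass with normexp (0.91). Their part in the results was not tested. In RNA from whole cultures, fewer cells of a kind and less RNA per cell cannot be told apart. Of 3 probes for TCF7L2, the gene of Tcf4, 2 rose and 1 fell in DoxyNaB/Doxy, the highest 66.8-fold (adjusted p = 2.9e-10), but in Doxy/Ctl their log2 changes were 0.30, -0.17 and 0.36 and 0 of 3 passed. In NaB/Ctl, without doxycycline, the highest of these probes rose too, by 1.90 (3.74-fold, limma adjusted p = 0.000468). The others changed there by 0.91 and -0.08 and did not pass. The study describes DN-Tcf4 as little expressed with doxycycline alone and highly expressed with both agents.

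The first question was how butyrate alone changed the synthetase genes. In NaB/Ctl the genes spread from a fall of 2.64-fold to a rise of 2.01-fold, with more of them lower than higher. At an adjusted p under 0.01 (limma, Benjamini-Hochberg over all probes tested), 16 of 35 fell, 6 rose and 13 did not pass. Over all genes tested, 29.0% fell and 40.6% rose by the same rule. The 6 members that rose include MARS2, which passed the filter only through the groups with butyrate. With a fold over 2 asked for as well, the fold used by the study, whose p-values are not stated to be adjusted, 3 members fell (HARS2, YARS2 and SARS2) and 1 rose (SARS), beside 11.5% and 21.0% of all genes tested. The median log2 change was -0.17 over the 35 genes, -0.30 over the 20 cytosolic genes and -0.07 over the 15 mitochondrial genes, beside 0.17 over all genes tested.

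These shares depend on how arrays are scaled to each other. Scaling to the median lowered the median of all genes by 0.75 in NaB/Ctl and by 0.56 in DoxyNaB/Doxy, and quantile normalization lowered it by 0.18 and 0.14. Under these scalings the split of members in NaB/Ctl was 0 higher and 26 lower or 10 higher and 14 lower. These counts carry the shift of all genes, and the shares of all genes given above do not apply to them. Below the median of all genes lay 28 members with scaling to the median, 28 with the 75th percentile and 20 with quantile normalization. Relative to the median of all genes, that of the members was between -0.33 and -0.18 under the 5 scalings in NaB/Ctl and between -0.52 and -0.27 in DoxyNaB/Doxy. The order of the groups also turned: relative to all genes, the cytosolic median was -0.46 and the mitochondrial -0.23 in NaB/Ctl, but -0.17 and -0.27 with quantile normalization. Of the 22 members past the threshold in NaB/Ctl, only MARS2 changed its sign relative to all genes under any of them, with quantile normalization.

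**Figure D1:**
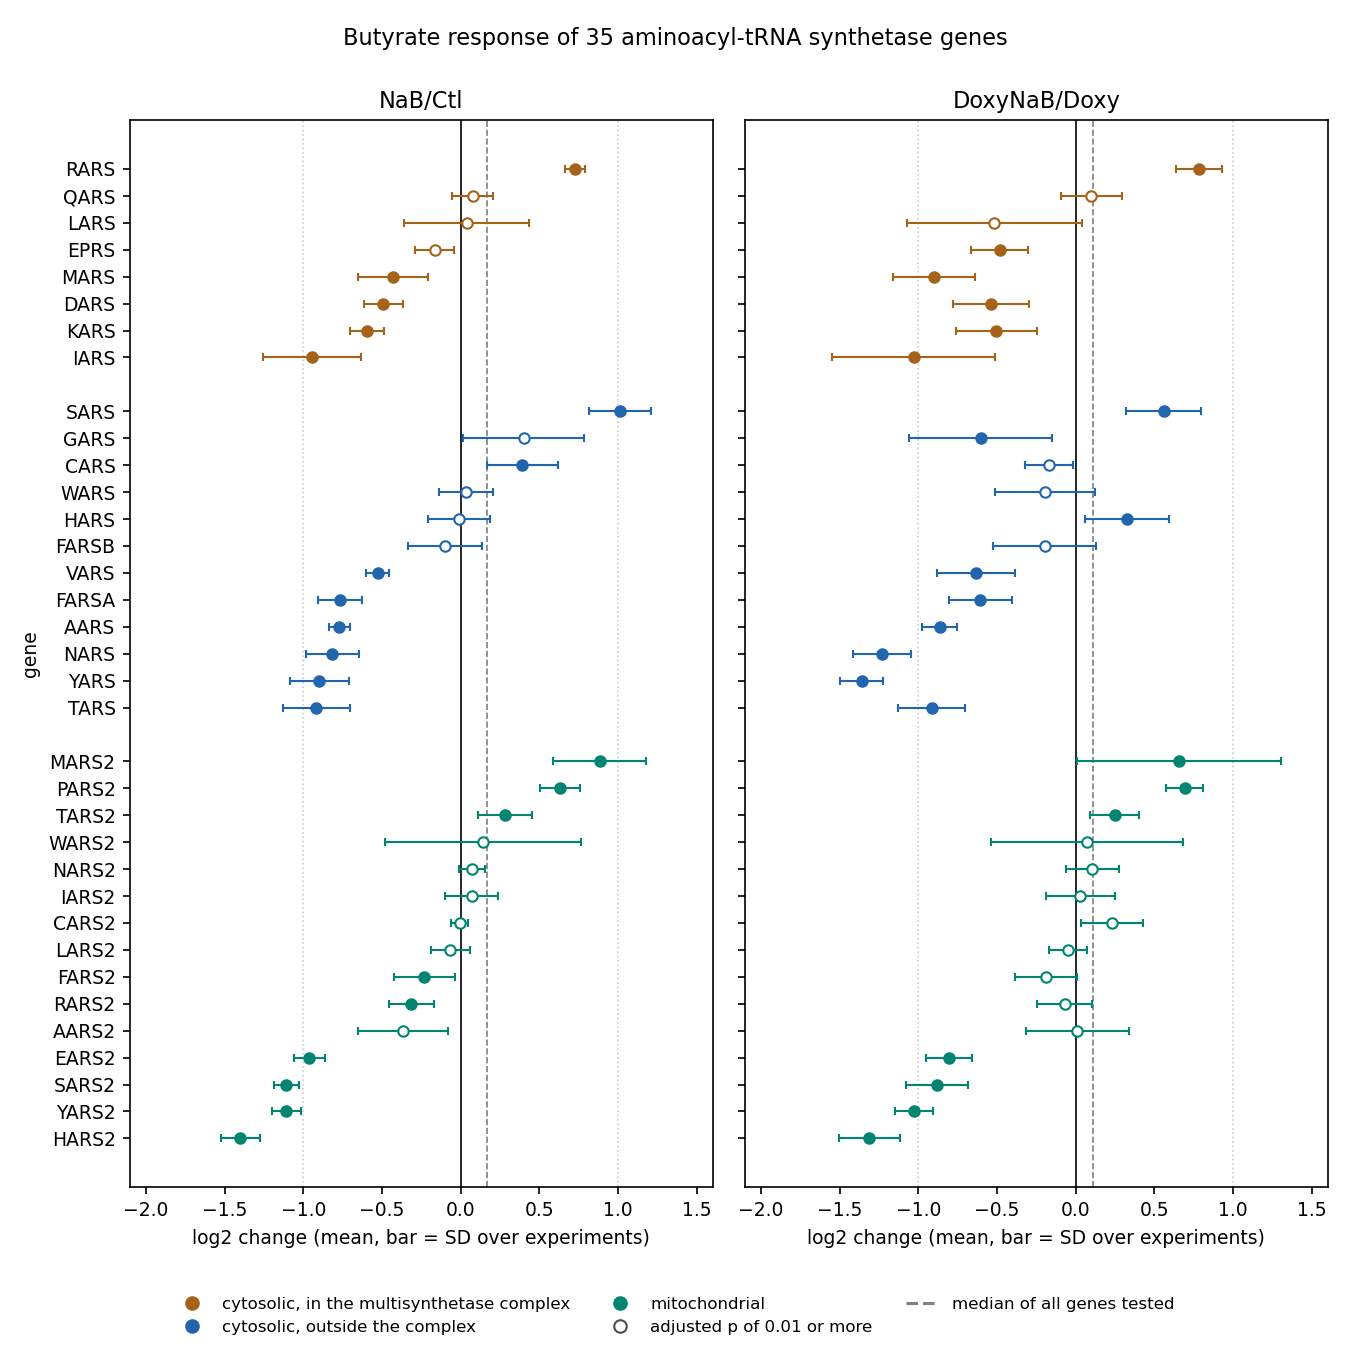
Log2 change of each of the 35 genes in NaB/Ctl (left) and DoxyNaB/Doxy (right), as the limma estimate with the SD over experiments as bar, with dotted lines at a fold of 2 and a dashed line at the median of all genes tested. HARS2, SARS2 and YARS2 lie lowest and SARS highest on the left, and relative to all genes MARS2 alone of the filled points changes side under another scaling (quantile normalization).

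Among the mitochondrial enzymes, the genes for histidine, tyrosine, serine and glutamate were lowered by butyrate, whether or not doxycycline was present. HARS2 encodes the mitochondrial histidyl-tRNA synthetase, which is mutated in Perrault syndrome. Its probe lies on chromosome 5 from 140058675 to 140058734 of NCBI36, the build of the array files. The lowest, median and highest of its 6 levels were 1.67, 1.80 and 1.91 in Ctl cells, 0.28, 0.37 and 0.67 in NaB cells, 1.55, 1.63 and 1.68 in Doxy cells and 0.04, 0.33 and 0.50 in DoxyNaB cells. Both groups with butyrate lay wholly below both groups without it. The log2 change was -1.40 ± 0.12 in NaB/Ctl (SD over 6 experiments, adjusted p = 2.19e-12) and -1.31 ± 0.19 in DoxyNaB/Doxy (adjusted p = 4.91e-12), falls of 2.64-fold and 2.48-fold. In NaB/Ctl it was -1.39 in experiment 1, -1.45 over experiments 2 to 4 and -1.32 over experiments 5 and 6.

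YARS2, the mitochondrial tyrosyl-tRNA synthetase, has its probe on chromosome 12 from 32794279 to 32794949, across an intron. Its 6 levels had a lowest, median and highest of 1.83, 1.92 and 1.99 in Ctl cells, 0.70, 0.81 and 0.85 in NaB cells, 1.68, 1.76 and 1.80 in Doxy cells and 0.56, 0.73 and 0.86 in DoxyNaB cells. Its levels lay close together, with an SD of 0.06 among Ctl and 0.05 among NaB arrays, and butyrate shifted it without overlap. The change was -1.11 ± 0.09 (adjusted p = 3.32e-12) in NaB/Ctl and -1.03 ± 0.12 (adjusted p = 8.38e-12) in DoxyNaB/Doxy. The second value is close to a fold of 2 and was -0.99 without experiment 6, short of that threshold.

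SARS2, the mitochondrial seryl-tRNA synthetase (probe on chromosome 19 from 44097864 to 44097923), had a lowest, median and highest level of 0.32, 0.59 and 1.38 in Ctl cells, -0.68, -0.50 and 0.29 in NaB cells, 0.34, 0.41 and 1.09 in Doxy cells and -0.62, -0.41 and 0.02 in DoxyNaB cells. The highest value of each group came from experiment 1, and the groups with and without butyrate did not overlap. Its log2 change was -1.11 ± 0.08 in NaB/Ctl (adjusted p = 2.93e-10) and -0.88 ± 0.20 in DoxyNaB/Doxy (adjusted p = 6.99e-09), so that it passed the fold of 2 in the first comparison only. The difference between its responses was -0.23 ± 0.20 and did not pass the interaction test (adjusted p = 0.417). EARS2, the mitochondrial glutamyl-tRNA synthetase, moved from 0.20 to 0.56 in Ctl cells to -0.70 to -0.40 in NaB cells, a change of -0.96 ± 0.10 (adjusted p = 1.42e-10), just short of a fold of 2.

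Of the remaining 11 mitochondrial genes, 3 rose, 2 fell by less and 6 did not pass. In NaB/Ctl that makes 6 of 15 lower and 3 higher, beside 29.0% and 40.6% of all genes tested. PARS2, for proline, was -0.77 to -0.22 in Ctl and -0.13 to 0.31 in NaB cells without overlap, a change of 0.63 ± 0.13 (adjusted p = 2.18e-08) in NaB/Ctl and 0.69 ± 0.12 (adjusted p = 6.01e-09) in DoxyNaB/Doxy, with the first value below 0 under scaling to the median (-0.12). TARS2, for threonine, changed by 0.28 ± 0.17 (adjusted p = 0.00277) in NaB/Ctl with overlapping ranges (-0.75 to -0.13 and -0.45 to 0.09), and by -0.47 under that scaling. MARS2, for methionine, was near background: its levels were -5.54 to -3.15 in Ctl and -4.10 to -2.56 in NaB cells, and it was well above background on 5 of 6 Ctl and 5 of 6 Doxy arrays. It passed the filter only through the NaB and DoxyNaB groups, where it was higher, so the filter favoured a rise. Its change of 0.88 ± 0.29 (adjusted p = 0.000113) turned to -0.31 with quantile normalization. RARS2 (arginine) and FARS2 (phenylalanine) fell, with changes of -0.31 and -0.23 in NaB/Ctl (adjusted p = 0.000378 and 0.00868). The other 6 mitochondrial genes, AARS2, CARS2, IARS2, LARS2, NARS2 and WARS2, had changes between -0.37 and 0.14 and did not pass.

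Outside the complex, 6 of 12 cytosolic genes fell in NaB/Ctl, 2 rose and 4 did not pass, where 29.0% of all genes tested fell and 40.6% rose. SARS, the cytosolic seryl-tRNA synthetase, was the member with the highest change (probe on chromosome 1 from 109582232 to 109582291). Its lowest, median and highest levels were 1.74, 1.83 and 2.01 in Ctl cells, 2.56, 2.90 and 3.14 in NaB cells, 2.20, 2.36 and 2.47 in Doxy cells and 2.51, 2.97 and 3.16 in DoxyNaB cells. The Ctl arrays were the lowest, the Doxy arrays lay wholly above them and the arrays with butyrate wholly above both. The change in NaB/Ctl was 1.01 ± 0.20 (adjusted p = 3.27e-09), a rise of 2.01-fold that stood at 0.95 without experiment 1 and 0.97 without experiment 6, under the fold of 2. It was 0.26 (adjusted p = 0.327) with scaling to the median.

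YARS and NARS, the cytosolic enzymes for tyrosine and asparagine, moved the other way. The lowest, median and highest levels of YARS (probe on chromosome 1 from 33018386 to 33018445) were 1.80, 2.13 and 2.34 in Ctl, 1.08, 1.14 and 1.30 in NaB, 2.36, 2.50 and 2.66 in Doxy and 0.86, 1.17 and 1.36 in DoxyNaB cells. Those of NARS (probe on chromosome 18 from 53419188 to 53419247) were 1.87, 2.16 and 2.34, 1.17, 1.33 and 1.52, 2.04, 2.40 and 2.45 and 0.84, 1.15 and 1.26 in the same order. For both genes the arrays with butyrate lay below all arrays without it. YARS changed by -0.90 ± 0.19 (adjusted p = 7.75e-10) in NaB/Ctl and NARS by -0.82 ± 0.17 (adjusted p = 8.44e-09). TARS, for threonine, was 2.94 to 3.48 in Ctl and 2.30 to 2.72 in NaB cells, a change of -0.92 ± 0.21 (adjusted p = 1.09e-06). For TARS the NaB array of experiment 1 and the Doxy array of experiment 5 carried an outlier mark and were left out.

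AARS, for alanine, was 2.21 to 2.56 in Ctl and 1.47 to 1.81 in NaB cells and changed by -0.77 ± 0.07 (adjusted p = 3.86e-10). It is described in full further on because of its doxycycline values and was chosen after these were seen. FARSA, a subunit of the phenylalanine enzyme, and VARS, for valine, fell, with changes of -0.77 and -0.53 in NaB/Ctl. CARS, for cysteine, changed by 0.39 ± 0.22 (adjusted p = 0.000295) and by -0.36 with scaling to the median, with levels of -0.17 to 0.52 in Ctl and -0.14 to 0.97 in NaB cells. GARS, for glycine, changed by 0.40 ± 0.38 (adjusted p = 0.0211) and did not pass. HARS, WARS and FARSB had changes from -0.10 to 0.03 and did not pass either, HARS with 5 values in NaB and 5 in Doxy cells since the arrays of experiment 6 carried an outlier mark.

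In the multisynthetase complex, 4 of 8 genes fell in NaB/Ctl, 1 rose and 3 did not pass, where 29.0% of all genes tested fell and 40.6% rose. IARS, for isoleucine (probe on chromosome 9 from 94012692 to 94012751), had a lowest, median and highest level of 3.39, 3.71 and 3.80 in Ctl, 2.31, 2.73 and 3.02 in NaB and 2.00, 2.93 and 3.11 in DoxyNaB cells. In Doxy cells its 5 values ran from 3.51 to 3.93, with the array of experiment 5 left out for an outlier mark. Butyrate lowered it without overlap, with a change of -0.95 ± 0.31 (adjusted p = 1.02e-05) in NaB/Ctl and -1.03 ± 0.52 (adjusted p = 4.81e-06) in DoxyNaB/Doxy. The other 2 probes of IARS changed by -0.95 and -0.98 in NaB/Ctl. RARS, for arginine, was 3.76 to 3.92 in Ctl and 4.45 to 4.69 in NaB cells without overlap, a change of 0.72 ± 0.06 (adjusted p = 1.07e-09), which was -0.026 with scaling to the median. KARS (lysine), DARS (aspartate) and MARS (methionine) fell, with changes of -0.60, -0.49 and -0.43. The second MARS probe did not pass (log2 change of -0.26, adjusted p = 0.188). The groups of KARS did not overlap (4.26 to 4.37 in Ctl and 3.53 to 3.86 in NaB cells, the NaB and Doxy arrays of experiment 6 left out for an outlier mark), and those of DARS did (2.84 to 3.14 and 2.25 to 2.87). QARS (glutamine), LARS (leucine) and EPRS had changes of 0.08, 0.04 and -0.17 and did not pass. LARS ranged from -2.21 to -0.50 among Ctl arrays alone, and QARS from 3.07 to 3.26.

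By enzyme class, a textbook division by the fold of the catalytic domain, 7 of 17 class I genes and 9 of 17 class II genes fell in NaB/Ctl, with 3 higher in each and EPRS in both classes. The same rule called 29.0% of all genes tested lower and 40.6% higher. The members lie on 14 chromosomes, with 7 on chromosome 1 and 5 on chromosome 5. Of those on chromosome 5, HARS2 and TARS fell in NaB/Ctl, RARS rose (-0.026 with scaling to the median) and HARS and LARS did not pass.

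**Figure D2:**
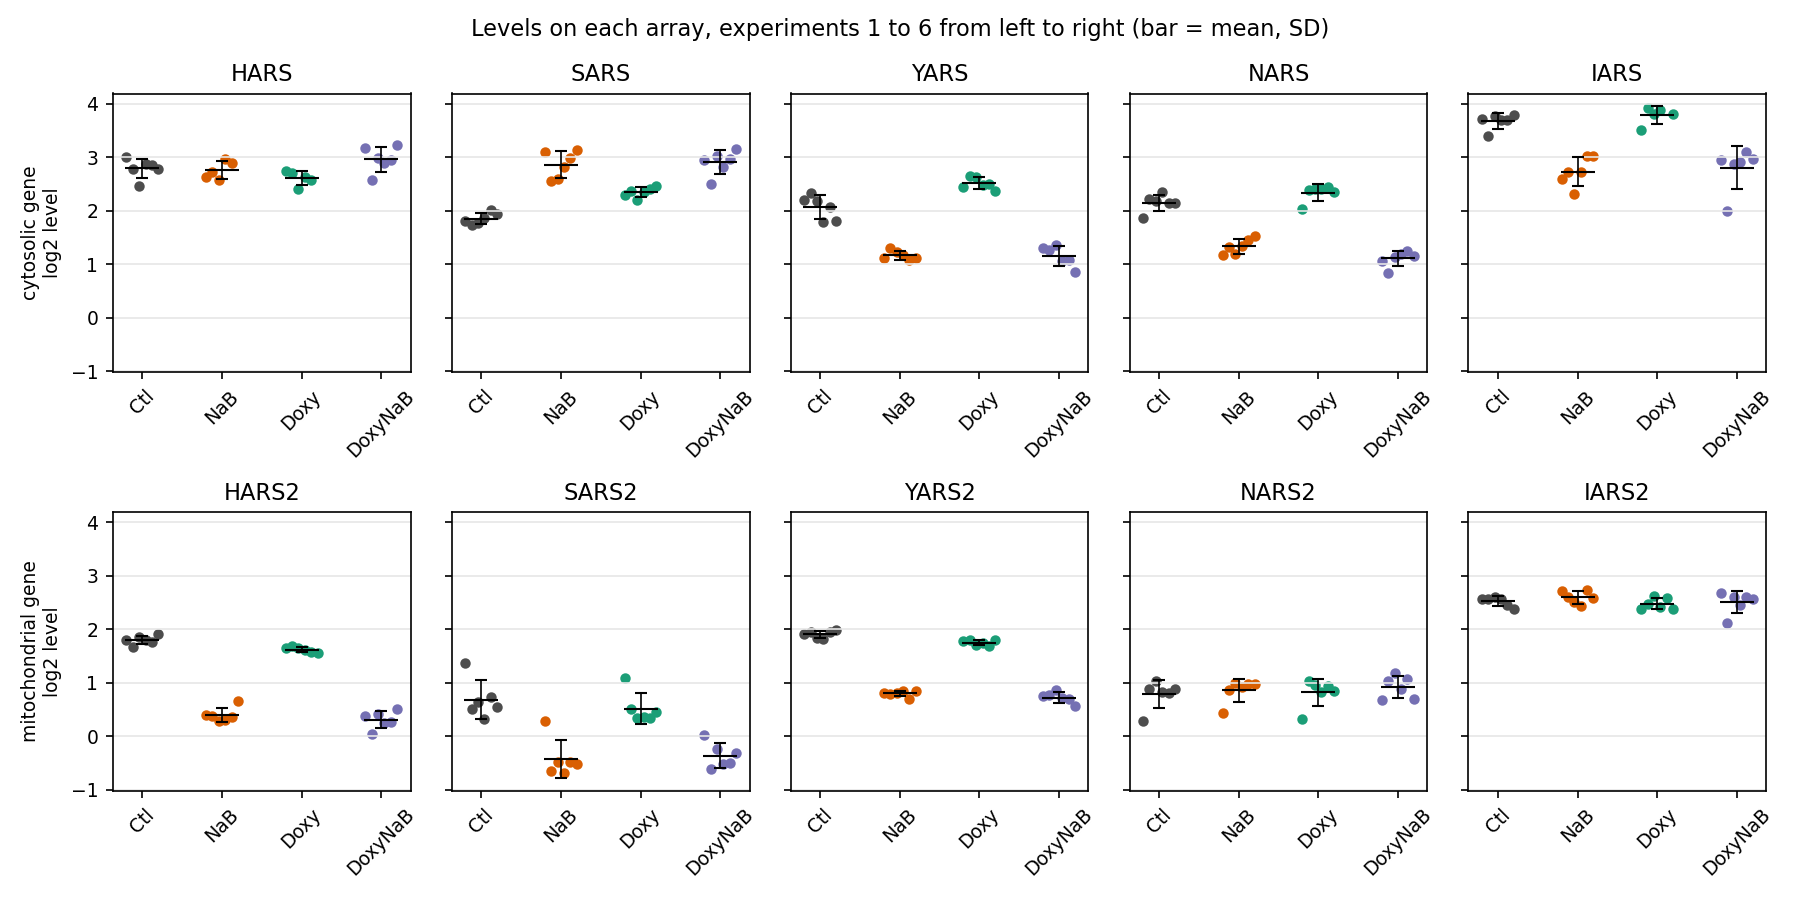
Log2 level of 5 cytosolic genes (top) and their mitochondrial counterparts (bottom) on each array, with points for experiments 1 to 6 from left to right and the mean and SD in black. HARS2, SARS2, YARS2, YARS, NARS and IARS are lower with butyrate, and SARS is higher, although its DoxyNaB/Doxy change is -0.0017 when arrays are scaled to the median.

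Next, the cytosolic and mitochondrial genes for the same amino acid were compared within each experiment, a difference that a common scaling factor of an array does not touch. For serine the log2 changes differed by 2.12 ± 0.19 in NaB/Ctl (SARS minus SARS2, SD over 6 experiments) and by 1.44 ± 0.16 in DoxyNaB/Doxy. For histidine the change of HARS minus that of HARS2 was 1.39 ± 0.27 and 1.66 ± 0.11 over the 5 experiments with both values, on genes with 84 bases between their starts. For arginine the difference was 1.04 ± 0.14 and for glutamate, EPRS against EARS2, 0.79 ± 0.16 in NaB/Ctl. These 4 pairs had a positive difference in every experiment with values, in both butyrate comparisons, and under each of the 5 scalings, although EPRS against EARS2 was 0.016 in DoxyNaB/Doxy with normexp.

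For methionine, threonine, isoleucine and asparagine the cytosolic gene was the lower one. The difference in NaB/Ctl was -1.31 ± 0.38 for MARS against MARS2, -1.17 ± 0.08 for TARS against TARS2, -1.02 ± 0.25 for IARS against IARS2 and -0.89 ± 0.13 for NARS against NARS2. Each had the same sign in every experiment with values, in both butyrate comparisons, and under each scaling but for MARS against MARS2 in NaB/Ctl (0.0010 with quantile normalization). All of these differences exceed their SD over experiments. MARS2, near background, passed the filter only through the groups with butyrate, where it was higher, so the size of its difference from MARS is uncertain. In NaB/Ctl that difference was -0.45 with normexp. Tyrosine and phenylalanine were the pairs in which both genes fell, with changes of -0.90 for YARS and -1.11 for YARS2, and of -0.77 for FARSA and -0.23 for FARS2. Averaged over the 20 cytosolic and the 15 mitochondrial genes, the difference between the mean changes was 0.00 ± 0.09 in NaB/Ctl, within its SD, and -0.30 ± 0.09 in DoxyNaB/Doxy, with the same sign in 6 of 6 experiments.

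**Figure D3:**
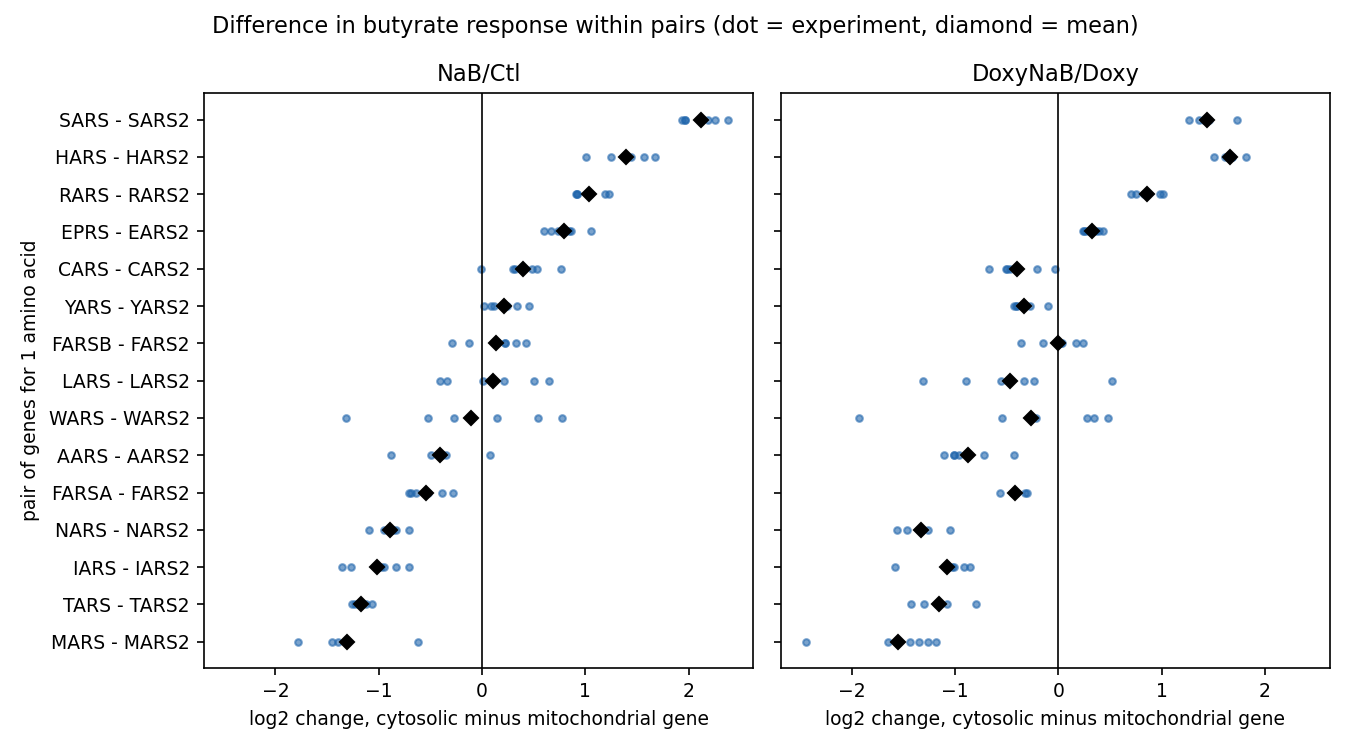
Log2 change of the cytosolic minus that of the mitochondrial gene for the same amino acid, in each experiment (dots) and as mean (diamonds), in NaB/Ctl (left) and DoxyNaB/Doxy (right). SARS over SARS2 and HARS over HARS2 lie to the right in every experiment, and the differences of MARS (near 0 in NaB/Ctl with quantile normalization), TARS, IARS and NARS lie to the left.

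With doxycycline present, the response to butyrate was asked again as DoxyNaB/Doxy, on arrays that NaB/Ctl does not use. At an adjusted p under 0.01, 16 of 35 members fell and 6 rose, beside 30.3% and 38.1% of all genes tested. HARS2, YARS2, IARS, NARS and YARS fell more than 2-fold and 0 members rose more than 2-fold (the same rule called 12.5% of all genes lower and 18.7% higher). Of the 35 genes, 14 fell and 5 rose past the threshold in both butyrate comparisons, 40.0% and 14.3%, beside 27.0% and 35.6% of all genes tested. The cytosolic genes had a median change of -0.53 and the mitochondrial genes one of 0.01, beside 0.11 over all genes.

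NARS changed by -1.23 ± 0.18 (adjusted p = 2.87e-11) and YARS by -1.36 ± 0.13 (adjusted p = 2.6e-12), 2.35-fold and 2.57-fold lower. IARS passed the fold of 2 narrowly: without experiment 2, whose DoxyNaB array was the lowest, its change was -0.82. MARS and EPRS fell, with changes of -0.90 ± 0.26 and -0.48 ± 0.18 (adjusted p = 2.27e-06 and 3.25e-06). RARS, PARS2, MARS2 and SARS rose by 0.78, 0.69, 0.66 and 0.56. The change of SARS was -0.0017 with scaling to the median, and that of MARS2 -0.18 with quantile normalization. HARS, which had not passed in NaB/Ctl, changed by 0.33 ± 0.27 (adjusted p = 0.00802) over 5 experiments and TARS2 by 0.25 ± 0.15 (adjusted p = 0.00648). Both were below 0 under scaling to the median.

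GARS fell here, by 0.60 ± 0.45 (adjusted p = 0.00132), after a positive value in NaB/Ctl. Its levels were -0.78 to 0.60 in Ctl and 0.02 to 0.93 in Doxy cells. With butyrate they were -0.30 to 0.54 in NaB and -0.42 to 0.35 in DoxyNaB cells. The test of the difference in butyrate response is the interaction, the response without doxycycline minus that with it. It called 1 of the 35 genes at an adjusted p under 0.01, beside 1.12% of all genes in that direction, and 0 in the other, beside 0.244%. That gene is YARS, with a difference of 0.46 ± 0.30 (adjusted p = 0.00945) and a positive sign in 6 of 6 experiments. It was 0.05 in experiment 1, 0.49 over experiments 2 to 4 and 0.62 over experiments 5 and 6, and it did not pass without any single one of experiments 2 to 6 (adjusted p from 0.0227 to 0.0885) or without the experiment as a block (adjusted p = 0.237). GARS (1.00 ± 0.52, adjusted p = 0.0126), CARS (0.56 ± 0.20, adjusted p = 0.0112) and NARS (0.41 ± 0.19, adjusted p = 0.0376) had positive differences in all experiments and missed the threshold.

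Doxycycline alone changed few genes, and 5 of them were cytosolic synthetases from outside the complex. In Doxy/Ctl, AARS, CARS, GARS, SARS and YARS passed an adjusted p of 0.01 and all 5 were higher. By this rule 0.462% of all genes tested were higher and 0.0924% lower (70 and 14 genes), and 0 members were lower. Doxy/Ctl shares the Ctl arrays with NaB/Ctl and the Doxy arrays with DoxyNaB/Doxy, so the comparisons are not independent, and the interaction uses all 4 groups.

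AARS had the smallest SD of the 5. Its lowest, median and highest levels were 2.21, 2.35 and 2.56 in Ctl and 2.52, 2.78 and 2.98 in Doxy cells, and within experiments it rose by 0.38 ± 0.06 (adjusted p = 0.000716). The ranges overlap at 2.52 and 2.56, while each Doxy array exceeded the Ctl array of its own experiment. SARS rose by 0.50 ± 0.09 (adjusted p = 0.00366) and YARS by 0.45 ± 0.16 (adjusted p = 0.00107), both without overlap between the groups. CARS had a lowest, median and highest level of -0.17, 0.12 and 0.52 in Ctl and 0.40, 0.80 and 1.02 in Doxy cells, with a change of 0.64 ± 0.17 (adjusted p = 0.000281). GARS changed by 0.89 ± 0.39 (adjusted p = 0.00366) from -0.78, -0.41 and 0.60 to 0.02, 0.74 and 0.93, and it was 0.67 in experiment 1, 0.72 over experiments 2 to 4 and 1.26 over experiments 5 and 6. All 5 were higher in 6 of 6 experiments and kept a positive sign under each scaling.

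The size of these changes is under 2-fold and the calls depend on the fit. Without the experiment as a block 0 of the 5 passed, with adjusted p from 0.0531 to 0.183, and 0 passed with normexp background correction, scaling to the median or the methods' t-test after adjustment. The count was 1 without experiment 5, 2 without experiment 3, 3 without experiment 4 or 6 and 4 without experiment 1 or 2. For the other cytosolic genes the change was between -0.20 for FARSA and 0.41 for LARS, and for the 15 mitochondrial genes between -0.20 and 0.15. The mean change was 0.27 ± 0.06 over the 12 genes outside the complex, 0.09 ± 0.06 over the 8 genes inside it and -0.05 ± 0.03 over the mitochondrial genes, each with the same sign in 6 of 6 experiments.

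**Figure D4:**
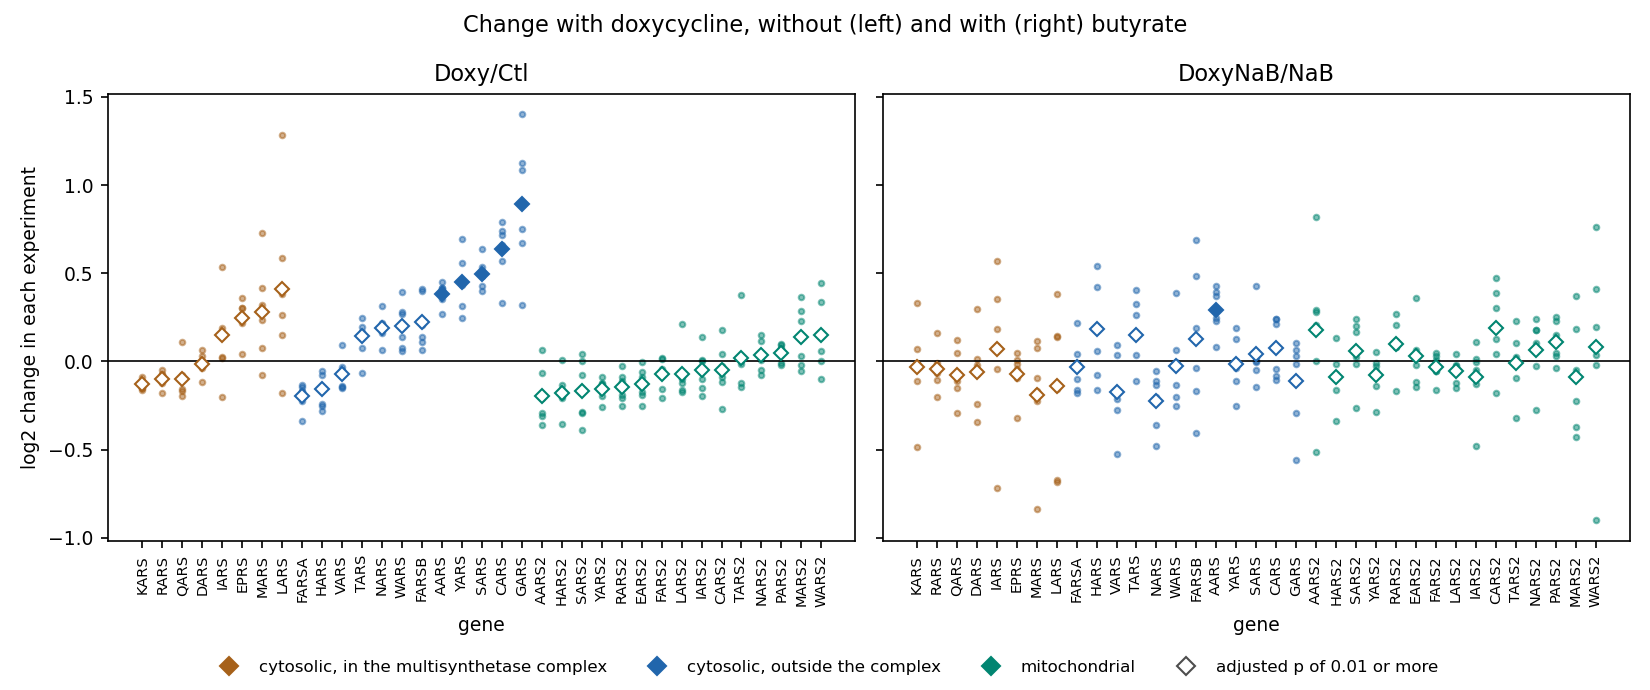
Log2 change with doxycycline in each experiment (dots) and as the limma estimate (diamonds, filled at an adjusted p under 0.01) for the 35 genes, in Doxy/Ctl (left) and DoxyNaB/NaB (right). AARS, YARS, SARS, CARS and GARS are filled on the left with every dot above 0, and AARS alone is filled on the right.

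When butyrate was present, doxycycline changed 1 member. In DoxyNaB/NaB, the comparison of the arrays with butyrate, AARS rose by 0.29 ± 0.13 (adjusted p = 0.00275) in 6 of 6 experiments, beside 0.693% of all genes higher and 2.03% lower. Its levels were 1.47, 1.54 and 1.81 in NaB and 1.61, 1.85 and 2.18 in DoxyNaB cells, which overlap. That call too was lost without the experiment as a block (adjusted p = 0.221) and without experiment 1, 3, 5 or 6 (adjusted p from 0.0124 to 0.0388). The other 34 genes had changes between -0.22 (NARS) and 0.19 (CARS2). CARS, GARS, SARS and YARS were at 0.08, -0.11, 0.04 and -0.01.

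Genes that work with the synthetases were read from lists chosen for their roles. Beside the counts from these lists, 29.0% of all genes tested fell in NaB/Ctl and 40.6% rose. Past the threshold in both butyrate comparisons, 27.0% of all genes tested fell. The scaffold of the complex fell as a whole: AIMP1, AIMP2 and EEF1E1 changed by -0.41 ± 0.12, -0.64 ± 0.16 and -1.07 ± 0.18 in NaB/Ctl, 3 of 3 passing in both butyrate comparisons. All 3 stayed below 0 under each scaling, although with normexp 2 of 3 passed in NaB/Ctl. Among further genes for charging in mitochondria, the amidotransferase subunits QRSL1, GATB and GATC fell in NaB/Ctl (-1.16 ± 0.67, -0.43 ± 0.18 and -0.78 ± 0.21). QRSL1 was close to background, well above it on 3 of 6 NaB arrays, so the size of its change is uncertain. These subunits make glutaminyl-tRNA in mitochondria from the product of EARS2, which fell too. VARS2 and MTFMT did not pass in NaB/Ctl. In DoxyNaB/Doxy MTFMT did not pass either, and VARS2 rose by 0.23 ± 0.15 (limma adjusted p = 0.0044), a change below 0 with scaling to the median. Of 8 genes for tRNA processing, proofreading and export, 4 fell in NaB/Ctl, with XPOT, the exportin of tRNA, at -1.04 ± 0.12.

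The 6 cytosolic elongation factors, which carry charged tRNA to the ribosome or move it on, had 2 lower (EEF1B2 and EEF1A2, -0.69 ± 0.22 and -1.24 ± 0.29) and 1 higher (EEF1D, 0.54 ± 0.11, which turned with scaling to the median) in NaB/Ctl. Of the mitochondrial translation factors 3 of 6 were higher in NaB/Ctl (MTIF3, GFM1 and GFM2) and 1 lower (MTIF2, -0.52 ± 0.27). With scaling to the median 0 passed as higher and 3 as lower, and GFM1 and GFM2 turned below 0. With normexp 3 passed as higher and 0 as lower. WARS, known as an interferon-gamma induced gene, did not pass in NaB/Ctl (0.03 ± 0.17, adjusted p = 0.767). Of the interferon-gamma list, 5 of 8 genes were tested, and 3 were higher and 2 lower in NaB/Ctl, with TAP1 at -0.76 ± 0.37.

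The 16 genes of the ATF4 amino acid response all passed the filter. In Doxy/Ctl 9 of 16 rose and 0 fell, beside 0.462% and 0.0924% of all genes tested. The median change of the 16 was 0.56, beside 0.02 over all genes tested (0 of 16 passed with scaling to the median, where the median was 0.48). The 9 include ATF4 itself (0.45 ± 0.07), the asparagine synthetase ASNS (1.09 ± 0.06, adjusted p = 2.1e-07), the serine synthesis genes PHGDH and PSAT1 (0.72 ± 0.08 and 0.74 ± 0.12) and TRIB3 (0.93 ± 0.15). The 5 synthetases of the preceding comparison rose on the same arrays, and whether ATF4 had a part in their values was not tested. With butyrate alone, 8 of the 16 fell and 5 rose, beside 29.0% and 40.6% of all genes tested. With scaling to the median 10 fell and 2 rose, and ASNS turned below 0. With quantile normalization 7 fell and 6 rose. ATF4 changed by -0.89 and TRIB3 by -1.59, whereas ATF3 and DDIT3 rose by 2.43 and 1.85. In the interaction 6 of 16 passed, all with a positive difference, beside 1.12% of all genes tested in that direction. With normexp 3 of 16 passed, and 0 did with arrays scaled to their median. Of the 7 genes with TGATGNAA in the window, AARS and CARS were higher in Doxy/Ctl, and the changes of IARS, MARS, NARS, TARS and YARS2 there were 0.15, 0.28, 0.19, 0.15 and -0.16, which did not pass.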

How the data were processed

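RNA from HCT-116 cells was hybridised to 24 one-colour Agilent whole-genome arrays, 6 per treatment. Deposited spot intensities (gProcessedSignal, arbitrary units) had been read by the authors with Agilent Feature Extraction 9.5.3.1, background-subtracted but not scaled between arrays. Control spots and spots with an outlier mark were left out, spots of a probe were averaged as log2 values, and each array's log2 75th percentile was subtracted. A probe was tested if some treatment had it well above background on each of its 6 arrays (18984 of 34127 probes, 15090 of them on all 24). A gene is its tested probe with the highest mean level. limma 3.58.1 in R 4.3.3 fitted the 4 treatments with the experiment as block, as the study's methods name a paired test, with Benjamini-Hochberg adjustment over all tested probes. Arrays of 1 experiment deviated together in 35 of 36 pairs (correlation over 0.1, median 0.57, lowest -0.21 between NaB and DoxyNaB of experiment 3). Values after ± are SDs over experiments. Calls needed an adjusted p under 0.01 and, where stated for butyrate, a fold over 2 as in the study. Interaction is NaB/Ctl minus DoxyNaB/Doxy. The number of arrays limits the precision.

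Values on every array were summarised for 18 genes, those called in a butyrate comparison or the interaction and the 3 highest and lowest in NaB/Ctl of each group. AARS was added after its values were seen, and 16 genes are given by range. The members and lists were chosen with earlier results of these data known. The fit was tested on simulated data. Alternatives covered normexp (offset 50), quantile, median and centred scaling, the filter, block, probes of a gene, thresholds, the methods' t-test and each experiment left out. Motifs were searched in RefSeq promoter sequences of GRCh38.p14, and 37 of 38 probes were matched to their gene by accession and 1 by synonym. Some genes of the companion lists are not reported here.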

Additional observations from a re-analysis of the deposited data

Results flagged for a closer look

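Of 133 groups of 6 levels (a gene in a treatment), 23 held a highest or lowest array that stood apart from the other 5 by Dixon's test of the gap over the range, where chance gives about 1 in 20 (5%). In 17 of the 23 the array was that of experiment 1, in 4 that of experiment 2, in 1 that of experiment 4 and in 1 that of experiment 6. In experiment 1, VARS stood at 4.68 in Ctl, 4.19 in NaB and 4.63 in Doxy, and MARS2, close to background, at -5.54, -4.10 and -5.59. NARS2 stood at 0.28 in Ctl, 0.43 in NaB and 0.33 in Doxy. SARS2 was at 0.29 in NaB and 1.09 in Doxy, MARS at -0.77 in NaB and -0.12 in Doxy, and FARSB at 1.64 in Ctl and 1.28 in NaB. The others of experiment 1 were LARS at -2.21 in Ctl and NARS at 2.04 in Doxy.

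In experiment 2, IARS stood at 3.39 in Ctl and 2.00 in DoxyNaB, KARS at 3.15 and AARS2 at -1.32 in DoxyNaB, the array with the highest negative controls. WARS was at 1.98 in Ctl of experiment 4 and HARS2 at 0.67 in NaB of experiment 6. Experiment is a block in the fit, so a shift shared by its 4 arrays does not enter the changes. A shift of 1 array alone does enter them: IARS changed by -1.03 in DoxyNaB/Doxy and by -0.82 without experiment 2.

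The response of YARS to butyrate differed with and without doxycycline by 0.46 on the log2 scale in the interaction (limma, adjusted p = 0.00945), with a fall of 0.90 without and 1.36 with doxycycline. Its change with doxycycline was 0.45 without butyrate (Doxy/Ctl) and -0.01 with it (DoxyNaB/NaB).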

How the results depend on the processing

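Genes past a fold of 2 with butyrate depended on scaling and fold. In NaB/Ctl the 1 higher gene became 6 at any fold and 0 when arrays were scaled to the median, centred on detected probes, blocked by slide or limited to experiments 2 to 4, and it was 0 to 1 with 1 experiment left out (0 without experiment 1 or 6). The 3 lower genes became 16 at any fold, 1 with normexp, 16 with scaling to the median, 5 in experiments 2 to 4 and 3 to 4 with 1 experiment left out. In DoxyNaB/Doxy the count of 0 higher became 6 at any fold. The 5 lower genes became 16 at any fold, 3 with quantile normalization, 17 with scaling to the median and 4 to 5 with 1 experiment left out. Directions turned with scaling to the median for CARS (-0.36), PARS2 (-0.12), RARS (-0.026) and TARS2 (-0.47) in NaB/Ctl and for HARS (-0.26), SARS (-0.0017) and TARS2 (-0.31) in DoxyNaB/Doxy, and with quantile normalization for MARS2 (-0.31 in NaB/Ctl and -0.18 in DoxyNaB/Doxy).

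The 5 genes higher in Doxy/Ctl became 0 without the replicate block, with normexp, scaling to the median, a fold over 2, only the arrays compared, the methods' t-test after adjustment, experiments 2 to 4 or experiments 5 and 6, and 3 with no filter. They were 1 to 4 with 1 experiment left out. The methods' t-test without adjustment called 5 lower genes where limma called 0. The 1 gene higher in DoxyNaB/NaB was lost (0) under the same alternatives and with no filter, and was 0 to 1 with 1 experiment left out. The 1 gene in the interaction became 4 at an adjusted p under 0.05, 3 with quantile normalization or the filter on all arrays, 2 when centred on detected probes or blocked by slide and 6 with the methods' t-test without adjustment. It became 0 without the replicate block and with normexp, scaling to the median, a fold over 2, no filter, the methods' t-test after adjustment, experiments 2 to 4, experiments 5 and 6 or without the arrays of highest negative controls, and 0 to 2 with 1 experiment left out. The cause of these shifts was not tested. Without the replicate block, 33 of the 51 single-gene changes past an adjusted p of 0.01 kept their call and 18 lost it. Averaging a gene's probes, which bears on IARS and MARS alone, cost MARS its call in NaB/Ctl (-0.35, adjusted p = 0.0112). Signals near background, as for MARS2, limit what can be measured.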
